A study of Drosophila melanogaster with 3 samples.

Results

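Phol occupancy was examined at 10 Drosophila melanogaster muscle genes, among 13945 protein-coding genes of the 6 chromosome arms analysed. They are the muscle actins Act87E and Act57B, the tropomyosins Tm1 and Tm2, the troponin genes up (troponin T) and wupA (troponin I), the muscle myosin heavy chain Mhc, the titin-related gene sls, the nesprin gene Msp300 and the transcription factor gene Mef2. The genes were taken from a list of names, and every peak summit inside a gene or within 5 kb of it was counted for that gene. This gave 27 of the 10264 summits that the authors kept as reproducible across replicates. Chromatin came from whole embryos of both sexes, 0 to 16 hours old, of a transgenic line that stably makes Phol fused at its C-terminal end to GFP (green fluorescent protein), and was pulled down with an anti-GFP antibody. All 3 biological replicates carry the transgene and form a single group, so no 2 conditions are compared. Whole embryos hold many tissues, so binding in muscle cells and in other cells cannot be told apart. The promoter of the transgene is not stated in the labels. Nothing in them says that the replicates were separate embryo collections, so an SD here measures the spread between these samples. Read depth is unknown and the control is not analysed here, so promoter peaks that would arise without Phol cannot be told apart from bound ones.

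Phol belongs to the Polycomb group and binds DNA through zinc fingers; it is related to Pho and to mammalian YY1 and recognises a site with the core GCCAT. With its partner Sfmbt it marks places where Polycomb complexes act, and it is also found at the starts of active genes. In embryonic muscle the MADS-box factor Mef2 turns on many genes of the sarcomere, the contractile unit in which actin filaments carrying tropomyosin and troponin slide along myosin. Sls spans the elastic part of the sarcomere, and Msp300 ties muscle nuclei to the cytoskeleton.

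Phol summits lay at the starts of Act87E, Msp300, Tm1, Mef2 and sls, and none lay at a start of Act57B, Tm2, Mhc, up or wupA. These 5 of 10 genes had a reproducible summit within 500 bp of an annotated start, against 40.8% of all protein-coding genes. Within the wider 5-kb window 8 of the 10 had a summit, against 70.7% of all protein-coding genes, and up and wupA had none. The 5 genes were the same in each replicate when its list was taken to its strongest 10264 peaks, at which length 43.0%, 41.5% and 37.0% of all protein-coding genes had a start summit in replicates 1, 2 and 3. For the 5-kb window the same replicate lists gave 8, 8 and 7 of the 10, against 71.6%, 71.4% and 69.0% of all protein-coding genes. Replicate 2 had wupA in place of Tm2, and replicate 3 had neither. Within 200 bp of a start Tm1 and Mef2 remained in the reproducible list, 2 of the 10, against 31.8% of all protein-coding genes. A share of 5 in 10 is close to the background, and no test of the list was made. Long genes hold more of the genome, and 84.0% of the genes over 20 kb had a summit in the window against 69.6% of the shorter ones. Here 5 members are over 20 kb, and each of these had one.

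Of the 27 summits, 7 stood at the start of another gene and 20 were assigned to the muscle genes. The strongest of the 7 is the promoter peak of Cp190, an insulator protein gene, 2960 bp upstream of Tm1. It had rank 22 in the reproducible list, where rank 1 is the strongest signal, and stood in the top 0.0800%, 0.0567% and 0.0867% of the peaks of replicates 1, 2 and 3. The next is the promoter peak of Pal1, which encodes a peptide-amidating enzyme, 1059 bp upstream of Mef2, at rank 54. The others were at the starts of MRG15, a chromodomain protein gene beside the first start of Tm1, of l(3)neo43 within an intron of Tm1, of ND-13A (a subunit of mitochondrial complex I) beside Msp300, of Etf-QO (a mitochondrial electron transfer enzyme) downstream of Mef2, and of CG6276, 4981 bp past the end of Tm2 and therefore just inside the window. The CG6276 summit was the only one counted for Tm2, and had no peak within 250 bp in replicate 2. The next summit out, 5243 bp past Tm2 and nearest to CG44040, was not counted.

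The 20 assigned summits were unevenly spread, with 13 of them in or beside Tm1 and Mef2. They had a median rank of 3538, against 5132 for the middle of the list, and 15 of the 20 were in its stronger part (rank up to 5132). All 20 had a peak within 250 bp in each full replicate list, and 19 had one in the strongest 10264 peaks of all 3. The same shares over all reproducible summits are not given here, and that list was itself kept for reproducibility. Neighbouring summits of Tm1, and of Mef2, also matched the same replicate peaks. By position, 14 lay in introns, 1 in a 5′ UTR of Mef2, 4 upstream of a gene and 1 downstream. The shares of all summits in these places are not given here. Within 500 bp of a start of their gene lay 9, while 11 were farther away, up to 19299 bp for the summit of Mhc. Over all 10264 summits 49.5% were that close to a start of any gene. This share is not like for like, because the 20 leave out the 7 summits within 500 bp of another gene's start. The 4 genes over 20 kb in length that held assigned summits inside the gene were Msp300, Tm1, Mhc and Mef2.

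**Figure D1:**
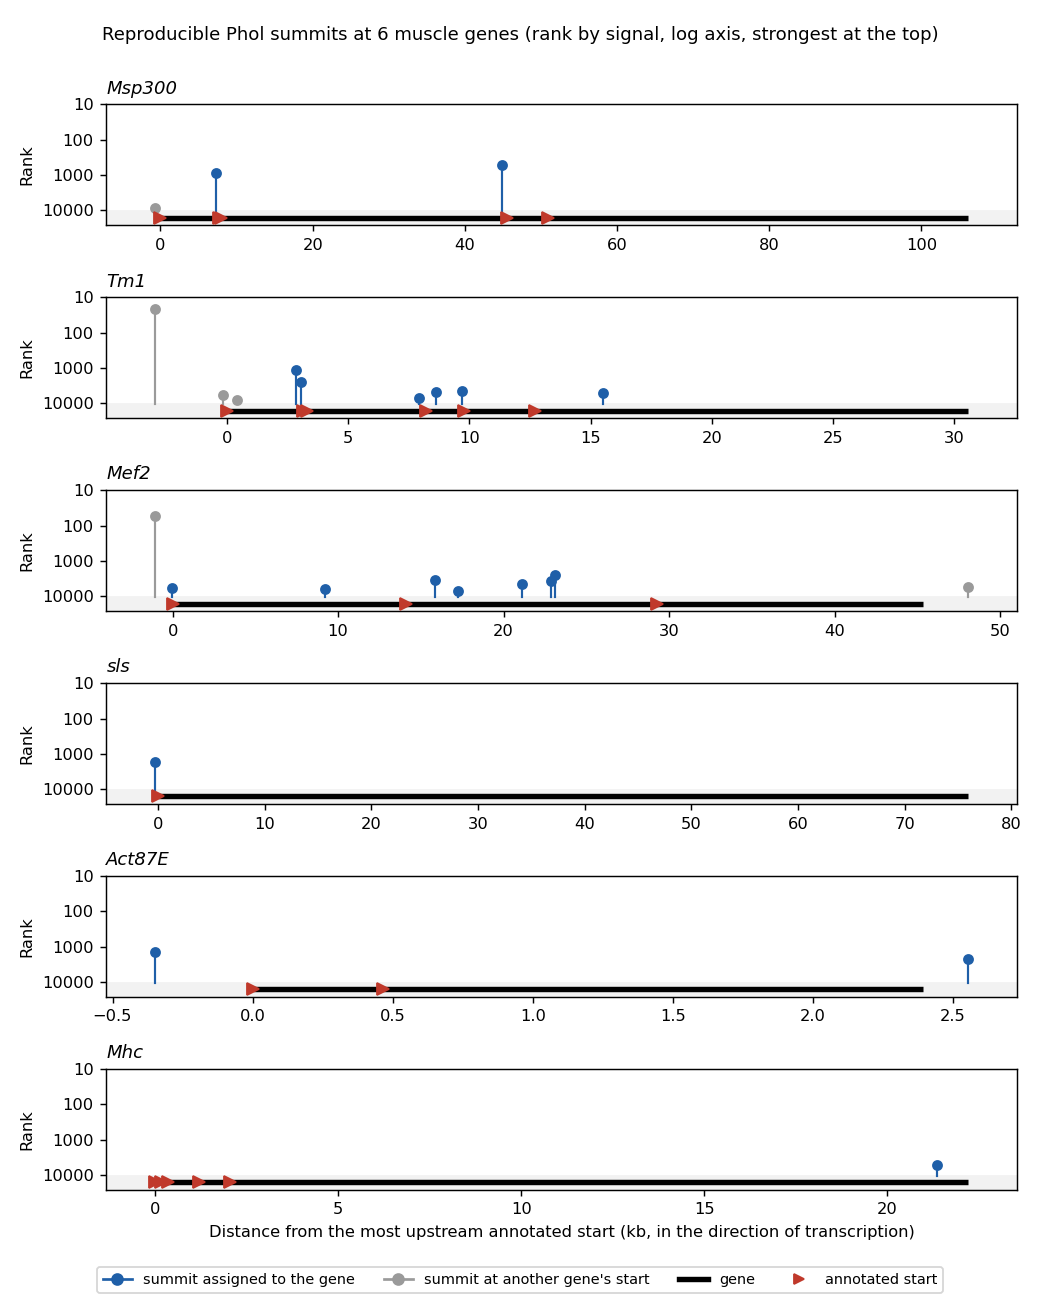
Each panel is a gene drawn from its most upstream annotated start (x axis, kb in the direction of transcription), with reproducible summits as sticks by signal rank (y axis, log scale, strongest at the top). Blue sticks are assigned to the gene and grey ones stand at the start of another gene, among them the Cp190 peak at rank 22 and the Pal1 peak at rank 54. Msp300 has 2 strong internal summits, Tm1 and Mef2 many weaker ones, and sls 1 at its start.

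The sequences under the strongest assigned summits are shown for Msp300, Tm1, Act87E and sls because none of them holds the core GCCAT within 50 bp, and that of Mhc because it alone among the assigned summits holds the extended site GCCATNTT. Each is 101 bp centred on the summit, read 5′ to 3′ on the strand of the gene, from the release 6 genome (RefSeq copy, the dm6 build), and none overlaps an annotated UTR. Capitals mark the Mef2 site under Act87E and the reverse reading of GCCATNTT under Mhc, and the others have no capitals because neither GCCAT nor a Mef2 site was found. In the labels, intergenic means that the summit lay upstream of the named gene and in no annotated exon. Introns of other genes were not checked.
Msp300, 633 bp upstream of its start 4 (chr2L:5145703-5145803, plus strand, intron): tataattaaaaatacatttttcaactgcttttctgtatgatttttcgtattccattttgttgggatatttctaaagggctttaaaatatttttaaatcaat
Msp300, 379 bp upstream of its second start (chr2L:5108083-5108183, plus strand, intron): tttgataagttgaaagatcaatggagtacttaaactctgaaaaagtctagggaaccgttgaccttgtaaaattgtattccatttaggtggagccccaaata
Tm1, 308 bp upstream of its second start (chr3R:15281013-15281113, plus strand, intron): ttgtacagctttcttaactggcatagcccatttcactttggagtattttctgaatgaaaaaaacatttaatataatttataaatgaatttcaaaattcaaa
Act87E, 348 bp upstream of its first start (chr3R:13425585-13425685, plus strand, intergenic): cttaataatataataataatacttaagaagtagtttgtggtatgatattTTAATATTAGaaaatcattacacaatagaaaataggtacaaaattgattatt
sls, 272 bp upstream of its start (chr3L:2115833-2115933, minus strand, intergenic): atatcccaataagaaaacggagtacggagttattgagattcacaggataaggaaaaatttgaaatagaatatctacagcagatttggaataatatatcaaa
Mhc, near its 3′ end (chr2L:16787860-16787960, plus strand, intron): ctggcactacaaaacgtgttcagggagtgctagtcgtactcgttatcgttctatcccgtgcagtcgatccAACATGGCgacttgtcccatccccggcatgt

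Words of known factors were searched on both strands within 50 bp of every summit. GCCAT was found at 4 of the 20 assigned summits, 3 of them at Mef2 and 1 at Mhc, and at 6 of all 27 summits in the windows, against 19.6% of all reproducible summits and 18.9% of windows centred 500 bp from a summit. GCCATNTT, which contains GCCAT, was found at 1 of the 20 and at 2 of the 27, against 6.63% of all reproducible summits and 1.89% of the windows 500 bp away. The other of these was the ND-13A summit. Leaving out replicate 2 or replicate 3, with windows then centred on summits of replicate 1, gave 3 summits with GCCAT and 1 with GCCATNTT. Leaving out replicate 1, with windows centred on summits of replicate 2, gave 6 and 2. The windows of the genes held 25, 24 and 24 summits without replicates 2, 3 and 1. The Mef2 site was found at the upstream summits of both actin genes, Act87E and Act57B, and at no other summit in the windows. Over all reproducible summits its share was 7.31%, and 2.74% in windows 500 bp away. CANNTG, the E-box bound by basic helix-loop-helix factors such as Twist, was at 10 of the 20, against 33.3% of all summits and 41.2% of windows 500 bp away. TATAAA was at 4 of the 20, at 22.9% of all summits and in 10.2% of windows 500 bp away. GAGAG, the word of the GAGA factor, was at 2 of the 20, at 7.75% of all summits and in 13.5% of windows 500 bp away. Motif 1 (GGTCACAC) was at 1 of the 20, the start summit of Mef2, which held it 2 times. Its share was 2.03% of all summits and 0.180% of windows 500 bp away. TATCGATA, the element DRE, was at 0 of the 20, at 3.11% of all summits and in 0.317% of windows 500 bp away. The 1 match to TATCGATA in the windows of the genes was at the Cp190 summit. Of all 27 summits, CANNTG was at 15, TATAAA at 5, GAGAG at 4 and GGTCACAC at 2, the other of these being the l(3)neo43 summit. The 20 leave out summits at starts of other genes, while the share of all summits leaves out none. A match is not a measured site. The share of G and C was 21.8% in the window of the stronger Msp300 summit, 35.6% in that of the other Msp300 summit, 24.8% at Tm1 (rank 1134), 17.8% at Act87E (rank 1407) and 29.7% at sls. The median was 33.7% over the 19 assigned summits nearest to a start of their own gene, against 31.7% over all reproducible summits.

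Of the thin filament genes, Act87E and Tm1 had a summit at a start. Act87E (FBgn0000046, 3R, 13425983 to 13428375, plus strand), a muscle actin gene, has 2 start groups, a group being the starts of 1 gene that lie within 100 bp of each other. Its upstream peak (3R, 13425411 to 13425810) ranked 1407, and its signal stood at 4.06%, 5.55% and 4.62% in replicates 1, 2 and 3, where a percentile is the rank as a percent of the 30000 peaks of a list and low means strong. The mean was 4.74% ± 0.756 (SD, n = 3). This peak was within 500 bp of the first start, which 2 of the 3 transcripts use, and the second start, 464 bp farther in, had no peak within 500 bp in any replicate. Another peak (3R, 13428388 to 13428651, rank 2262) had its summit 162 bp past the 3′ end of the gene, with percentiles of 7.28%, 8.83% and 6.97%. The 2 peaks thus bracketed the gene, and both stood high in all 3 replicates.

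Act57B (FBgn0000044, 2R, 20944021 to 20946431, plus strand), a muscle actin gene of the embryo and larva, had its only reproducible summit 4068 bp upstream of its single start, at rank 2432. The percentiles there were 9.91%, 12.0% and 5.64%, so replicate 3 placed this peak higher than the other replicates did. At the start itself each replicate had only a weak peak, at 65.0%, 70.3% and 67.3%. The distal peak was thus the stronger in every replicate.

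Tm1 (FBgn0003721, 3R, 15278220 to 15308779, plus strand) makes muscle and non-muscle tropomyosins from several promoters and had the most bound starts, 5 of its 6 start groups. The strongest peak (3R, 15280887 to 15281351) holds 2 summits 200 bp apart, at ranks 1134 and 2440, upstream of starts 2 and 3, numbered from the most upstream. Those starts are 161 bp apart and serve 1 and 10 of the 18 transcripts, so the peak cannot be given to either alone. It stood at 4.88%, 3.70% and 3.51% in the replicates, and both summits match the same replicate peaks. The first start had 2 summits within 500 bp, at ranks 5684 and 8010, but each was nearest to the start of MRG15 or l(3)neo43, at 32 bp and 17 bp. The fourth start had summits 266 bp upstream (rank 6993) and 431 bp downstream (rank 4866). The fifth had one 77 bp upstream (rank 4595), at 12.5%, 11.0% and 38.5%, where replicate 3 was far below the others. The sixth start, used by 3 transcripts, had no reproducible summit, and its strongest replicate peaks were at 47.0%, 55.5% and 59.7%. A further intronic summit lay 2791 bp past this start, at rank 5080.

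Tm2 (FBgn0004117, 3R), the tropomyosin gene just downstream of Tm1, had no reproducible summit at any of its 4 start groups. In the full replicate lists its strongest start peaks were at 53.2% in replicate 1 and 76.1% in replicate 2, and replicate 3 had none. The troponin genes up (FBgn0004169) and wupA (FBgn0283471), both on X, had none at their 5 and 2 start groups. The strongest start peaks of up were at 49.4%, 78.8% and 58.1%, and those of wupA at 56.3%, 97.0% and 98.3%. On X, 43.9% of the protein-coding genes had a start summit, against 40.8% of all protein-coding genes. Any bearing of the chromosome on up and wupA was not tested. The strongest peaks in the wupA window lay past the 3′ end of the gene, at 36.4%, 34.2% and 42.4%, and that of replicate 2 was rank 10260, just inside the strongest 10264. They were not the same peak in all replicates, since that of replicate 1 lay over 500 bp from the others.

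Mhc (FBgn0264695, 2L, 16766566 to 16788766, plus strand), the myosin heavy chain gene of muscle, had no summit at its 5 start groups, which lie within 2045 bp of each other and serve 21 transcripts. Only replicate 1 had start peaks, the strongest at 81.6%. The reproducible peak of the gene (2L, 16787811 to 16788020, rank 5215) lay in an intron 856 bp before the 3′ end, and the nearest annotated start, that of Cyt-b5-r, was 2811 bp away. It stood at 18.7%, 17.3% and 16.0% in the replicates (mean 17.3% ± 1.36, SD, n = 3). The sls gene (FBgn0086906, 3L, 2039681 to 2115611, minus strand) is 75.9 kb long with a single annotated start for its 13 transcripts, and its only reproducible peak (3L, 2115721 to 2116065, rank 1658) was at that start. The percentiles were 4.99%, 5.95% and 5.65%, with a mean of 5.53% ± 0.494 (SD, n = 3). No reproducible summit lay in the rest of the gene.

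Msp300 (FBgn0261836, 2L, 5100877 to 5207002, plus strand) held the 2 strongest summits assigned to any of the genes, both in introns. The strongest (2L, 5145539 to 5145965, rank 515) was 633 bp upstream of start 4, just outside the 500-bp limit, and stood at 1.98%, 1.74% and 1.58%. The other (2L, 5107883 to 5108290, rank 895) was 379 bp upstream of the second start, at 3.65%, 2.98% and 2.80%. In every replicate the first of these was stronger than the second, and their ranges did not overlap. The second start serves 2 of 11 transcripts and start 4 serves 1. The most upstream start, with 4 transcripts, had no peak in replicate 1 and peaks at only 98.5% and 81.4% in replicates 2 and 3. The other 3 starts had no peak within 500 bp in any replicate.

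Mef2 (FBgn0011656, 2R, 9913496 to 9958858, minus strand) had a summit at its most upstream start and 6 more inside the gene. The start peak (2R, 9958793 to 9958940, rank 5711) had its summit 29 bp upstream of a start that 2 of 11 transcripts use, at 18.6%, 15.4% and 24.8% (mean 19.6% ± 4.80, SD, n = 3). The third start, used by 8 transcripts, had only weak peaks, at 67.0% in replicate 1 and 65.3% in replicate 3, and none in replicate 2. The second start, with 1 transcript, was at 35.2%, 41.1% and 36.8%, outside the strongest 10264 peaks in each replicate. Of the internal summits the strongest was 6157 bp upstream of the third start (rank 2534, 5.60%, 9.46% and 10.9%), with another 199 bp away (rank 3607) that matches the same replicate peaks. The summit in a 5′ UTR, 1788 bp past the second start (rank 3469), stood at 5.53% in replicate 1 and at 16.6% and 17.0% in replicates 2 and 3. The other 3, at ranks 4590, 6135 and 6992, lay 7034, 4907 and 3133 bp from the nearest start.

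**Figure D2:**
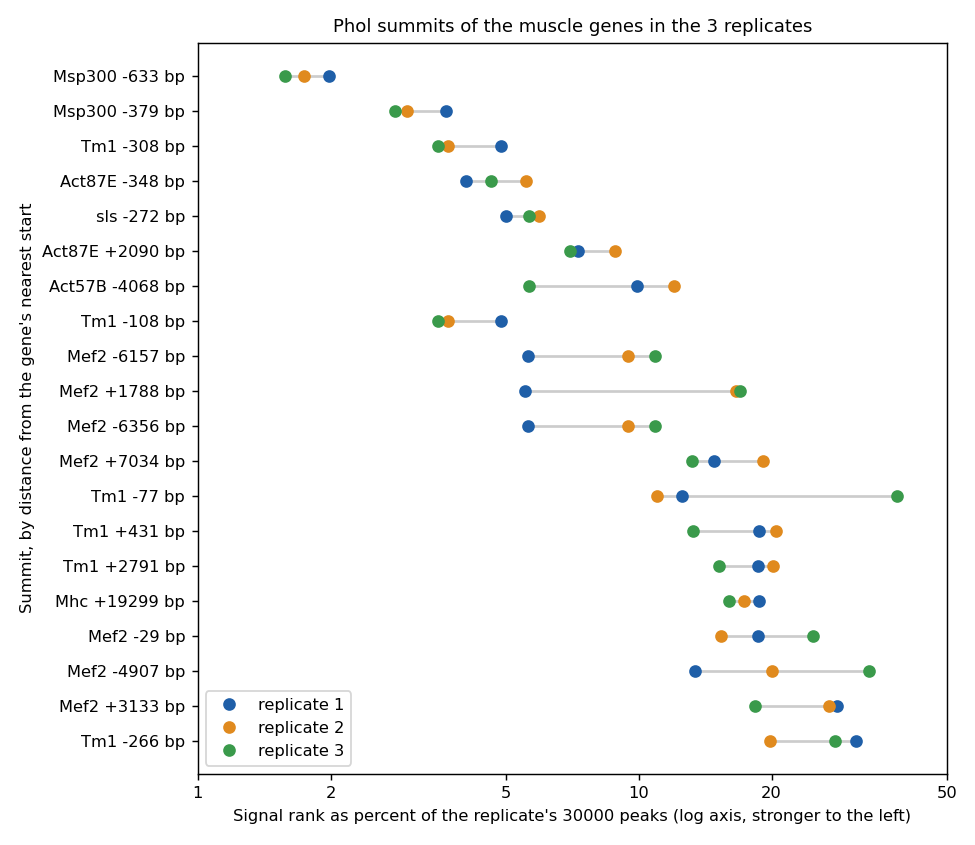
The x axis is the signal rank of each assigned summit as a percent of the 30000 peaks in each replicate list (log scale, stronger to the left), and the y axis lists the summits by gene and distance from the nearest start of that gene, negative upstream. Points are the 3 replicates. The Msp300 summits lie between 1.58% and 3.65% in all replicates, while the Tm1 summit 77 bp upstream of its start spreads from 11.0% to 38.5%.

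In all, 9 of the 34 start groups of the 10 genes had a reproducible summit within 500 bp (26.5%), against 36.7% of the start groups of all protein-coding genes. Among the 9, the first start of Tm1 had only summits nearest to the starts of MRG15 and l(3)neo43, and its starts 2 and 3 shared a peak. Of the 34, 8 had no peak within 500 bp in any replicate list. The same share over the start groups of all protein-coding genes is not given here, so whether this is usual cannot be told. The start with a summit was the one with the most annotated transcripts at Act87E (2 of 3) and the single start at sls (13 of 13). At Msp300 and Mef2 it was not the one with the most, and at Tm1 the start with the most transcripts shared its peak with a neighbouring start.

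**Figure D3:**
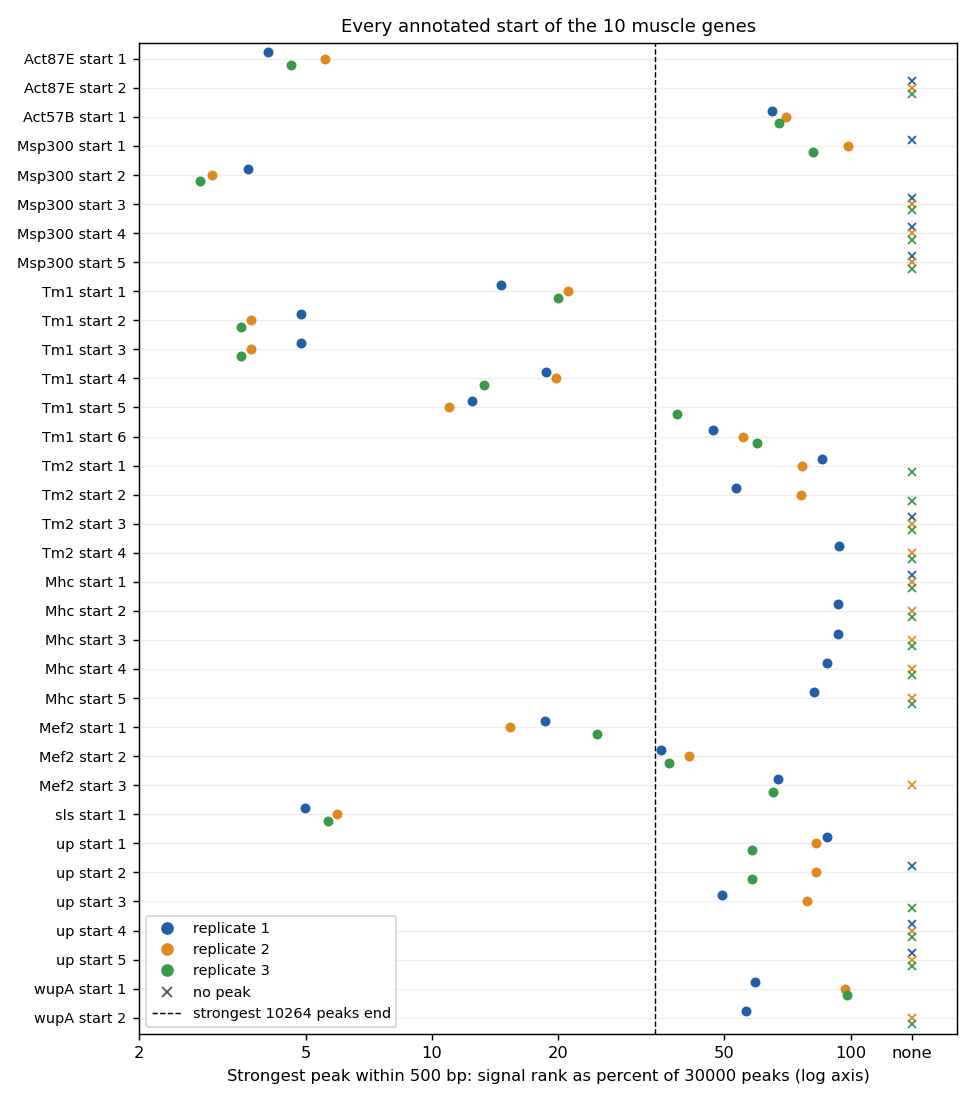
Each row is a start group of a gene, numbered from the most upstream, and the x axis is the percentile of the best peak of each replicate inside 500 bp (log scale, with crosses where there is none). The dashed line ends the strongest 10264 peaks. The starts of Act57B, Tm2, Mhc, up and wupA lie to the right of the line in every replicate, and the bound starts of Act87E, Msp300 and sls lie between 2.80% and 5.95%.

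Among the genes with a start summit, the strongest such summits ranked Msp300, Tm1, Act87E, sls and Mef2. Mean percentiles were 3.15% ± 0.449, 4.03% ± 0.745, 4.74% ± 0.756, 5.53% ± 0.494 and 19.6% ± 4.80 in that order (SD, n = 3 each). The ranges overlapped between Msp300 and Tm1, between Tm1 and Act87E and between Act87E and sls. Msp300 lay clear of Act87E and sls, Tm1 lay clear of sls, and Mef2 lay clear of the other genes. Within each replicate Msp300 was stronger than Tm1, and Act87E was stronger than sls. The median rank over the 5 genes was 1407, against 3808 for all 5688 occupied protein-coding genes. A stronger start summit than that of Msp300 was found at 15.3% of the occupied genes, and a stronger one than that of Mef2 at 68.7%. By the distance of log10 percentiles over the 3 replicates, the start summit of Msp300 was most like those of CG13807 and oxt, which share a peak, and of Mhcl, a myosin heavy chain-like gene (3.31%, 2.95% and 2.77%), among 5570 genes compared.

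The strongest start summits of Act87E, Msp300, Tm1 and sls stood over 250 bp upstream of the nearest start of the gene. These distances are a description, since only summits within 500 bp of a start entered and the genes were listed with earlier results known. In replicates 1, 2 and 3 the summit was 364, 365 and 341 bp from the start of Act87E and 360, 366 and 378 bp from that of Msp300, all upstream. It was 258, 277 and 308 bp upstream at Tm1 and 274, 255 and 302 bp upstream at sls. The Tm1 distances are to start 2, and the same summit is farther from start 3, though it cannot be given to either start alone. Tm1 also had weaker start summits closer in, 108 bp upstream of start 2 in the same peak (rank 2440) and 77 bp upstream of start 5 (rank 4595). The SD over the replicates was 9.17 to 25.2 bp at these genes. Mef2 had its summits 47 and 45 bp upstream in replicates 1 and 2 and 33 bp downstream in replicate 3. The median distance of the reproducible summits was 308 bp over the 5 genes and 122 bp over all occupied protein-coding genes. At 4 of the 5 the summit was over 250 bp from the start, a limit chosen after the values were seen, against 19.3% of the occupied genes. An unannotated start near such a summit was not looked for, so the distances are to annotated starts.

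**Figure D4:**
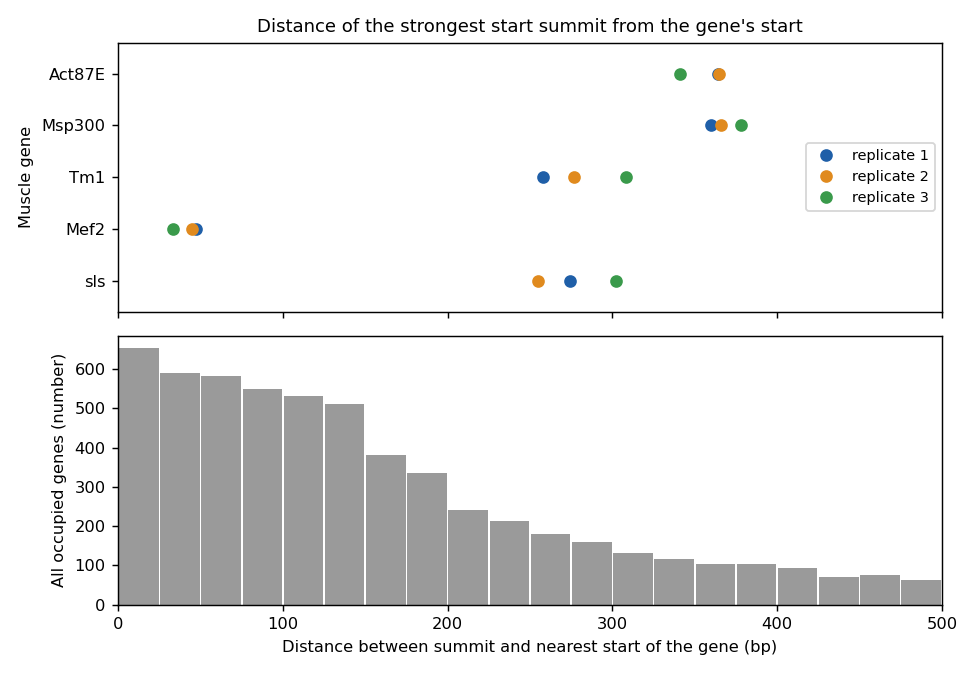
The upper panel gives the distance in bp between the strongest start summit and the nearest start of the gene in each replicate (points), and the lower panel counts all occupied protein-coding genes by the same distance in the reproducible list. Act87E, Msp300, Tm1 and sls lie between 255 and 378 bp, and Mef2 between 33 and 47 bp.

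Other genes of muscle were described from lists by role, 75 genes in all, of which 35 had a start summit (46.7%, against 40.8% of all protein-coding genes). The replicates gave 34, 36 and 32 of the 75. Of 23 further sarcomere genes 3 were occupied (13.0%), namely tmod, which caps actin filaments (rank 1381), Actn, the alpha-actinin of the Z-disc (rank 2544), and the kinase gene Strn-Mlck (rank 7593). The unoccupied ones included the muscle actins Act79B and Act88F, the myosin light chains Mlc1 and Mlc2 and paramyosin (Prm). Flightin (fln), the titin-like bt and all 5 troponin C genes listed were also unoccupied. Inside the gene or within 5 kb, 15 of these 23 sarcomere genes had a summit (65.2%). That compares with 64 of the 75 listed genes (85.3%) and 70.7% of all protein-coding genes. Of 9 genes that attach muscle to tendon cells through integrins 8 were occupied, led by Vinc (vinculin, rank 1365), the integrin gene mew (rank 2541, nearest to the start of comt) and the integrin gene mys (rank 3809). Ilk was the 1 without.

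Both cytoplasmic actin genes, Act5C (rank 1195) and Act42A (rank 7744), had a start summit, though that of Act5C was nearest to a noncoding gene and that of Act42A stood at 24.1%, 18.8% and 45.0% in the replicates. Of 11 genes of myoblast fusion 7 were occupied, led by Hem (rank 506), mbc (rank 758) and rols (rank 1551), and the first and second of these summits were nearest to the starts of other genes. Of 23 muscle identity factors 11 were occupied, led by the E-protein gene da (rank 42), the heart and visceral muscle gene tin (rank 811) and chn (rank 874). The chn summit had a peak within 250 bp in replicate 2 only, at 3.01%. The mesoderm gene twi was also occupied (rank 3657). Lam (rank 443), klar (rank 2569) and LamC (rank 6383) were occupied among the 4 listed genes of the nuclear envelope, and koi was not. The Lam summit was nearest to the start of Hel25E and the klar summit to that of BORCS6. SERCA, the calcium pump (rank 5631), was the 1 occupied of 3 calcium genes, and RyR and Ca-alpha1D were not. These lists were not tested, and some hold few genes.

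**Figure D5:**
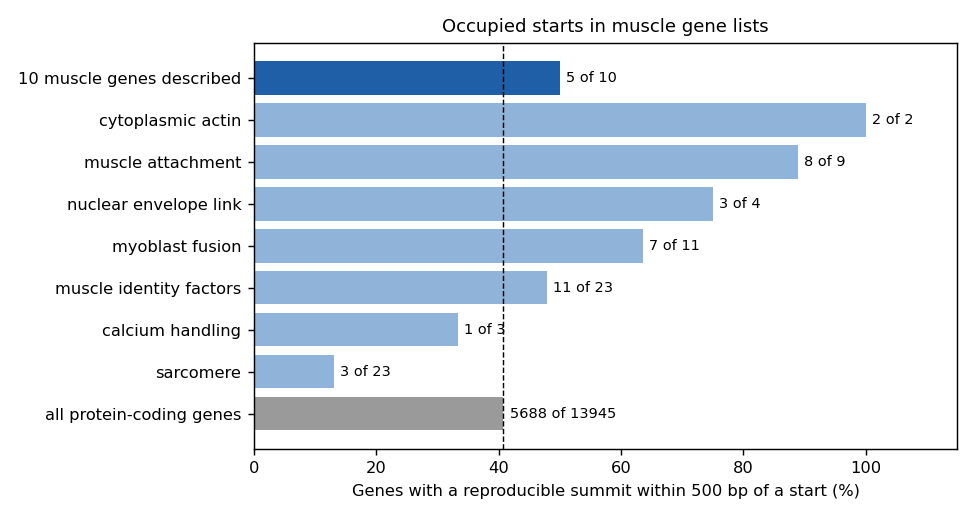
Bars give the percent of genes with a reproducible summit within 500 bp of a start, for the 10 muscle genes, 7 lists of other muscle genes and all protein-coding genes, with counts beside each bar. The dashed line is the share of all protein-coding genes, 40.8%, and the sarcomere list lies below it with 3 of 23.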

How the data were processed

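Peaks were called by the authors on each of 3 replicates and on the pooled replicates with a control alignment (30000 peaks in each list), and the reproducible list holds pooled peaks kept by an IDR (irreproducible discovery rate) threshold, per the deposited readme notes. The control is not analysed here. Aligner, peak caller, threshold value and read depth are not stated in the labels or notes. The deposited signal value of a peak has no stated scale and was used only to rank peaks within a list. The deposited −log10 q-value is the same for all reproducible peaks and was not used. The reproducible list equals the top 10264 peaks of the pooled list by signal, as checked on the files, and no row is identical between replicates.

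Genes are those of Ensembl release 115 on dm6 (release 6), with positions counted from 1. The peaks lay within the chromosome ends, and 99.8% of annotated start codons read ATG. A summit was assigned to another gene where the nearest start was that gene's and within 500 bp. Summits of different lists were matched within 250 bp, taking the strongest peak. Scripts ran in Python 3.11.15 with numpy 2.4.6 and were tested on simulated data. Members and lists were chosen with earlier results of these data known, and the assignment of summits after they were seen. Genes named are the 10 members, the gene of the nearest start, the 3 strongest occupied genes of each list, members of short counts, and the 3 most like the strongest member. The unoccupied sarcomere genes, twi and Act42A were named after their values were seen. All list symbols matched, Unc-89 as Obsc and CF2 as Cf2. With 1 group there is no test between conditions.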

Additional observations from a re-analysis of the deposited data

How the results depend on the processing

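No paired analysis was possible because the replicates form a single group. The 5 genes with a start summit were the same when any replicate was left out (5 each), in which case summits had to be shared by the strongest peaks of the other replicates. The stronger part of the reproducible list left 4 genes, without Mef2, and 7 start groups, with 25.8% of all protein-coding genes. Windows of 200 bp left 2 genes, Tm1 and Mef2, and 4 start groups, while 31.8% of all protein-coding genes kept a start summit. All 30000 pooled peaks gave 9 genes, 21 start groups and 95 summits in the windows, with 55.4% of all genes. Counting inside the genes only gave 4 genes and 16 summits (20.4% of all genes), and the stronger part of the reproducible list 17 summits. GCCAT was at 3 of the 17 summits in the stronger part and 17 of the 95 pooled ones. Of the 27 reproducible summits, 2 had it within 25 bp, against 11.5% of all reproducible summits, and 10 within 100 bp. It was at 3 without replicate 2, 3 without replicate 3 and 6 without replicate 1, settings added after seeing the data. GCCATNTT was at 0 of the 17 in the stronger part, and at 0 of the 27 within 25 bp and 5 within 100 bp. Without those replicates it was at 1, 1 and 2 in that order. Wider windows hold more matches by their width, and the other shares of all summits at these widths are not given here. Leaving out a replicate also changed the positions searched. These were summits of replicate 1, or of replicate 2 where replicate 1 was left out. The cause of the differences was not tested. For the percentiles, other matching distances gave the same values, and leaving out 1 of 3 replicates cannot move a mean by 1 SD, so these settings say nothing of their stability. With 3 replicates, lists of fixed length and unknown depth, a start without a reproducible summit was not detected as bound here, which does not show that Phol is absent.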
